A study of Mus musculus with 6 samples.

Results

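The genes described here are the 4 TEAD transcription factors (Tead1, Tead2, Tead3 and Tead4), their co-activators Yap1 and Wwtr1, the gene of the protein TAZ, and the cofactors Vgll2, Vgll3 and Vgll4. They were taken by symbol from the 35976 genes of the deposited tables, and all 9 were among the 17348 genes tested. The row named Taz in these tables is tafazzin, a mitochondrial enzyme, and was not used. Vgll1, the other member of the Vestigial-like family, was listed at 0 TPM (transcripts per 1000000 transcripts) in all 6 libraries.

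RNA-seq libraries of cultured satellite cells (SCs), the stem cells of skeletal muscle, were compared between 3 samples from NF-YA cKO mice and 3 from NF-YA fl/fl mice. The NF-YA fl/fl samples are the controls. Both genotypes carry floxed NF-YA alleles and were treated with tamoxifen (20 mg/ml, in mice 5 to 7 weeks old per the labels, while the study's methods give a slightly older range), and only NF-YA cKO mice carry Pax7-CreERT2, whose recombinase acts in cells that express Pax7. SCs came from hindlimb muscles by magnetic depletion of cells with endothelial, immune or Sca1 surface markers and were grown in growth medium. NF-YA is the subunit of the trimer NF-Y that contacts the CCAAT box. The transcript entry that the authors made for the deleted allele took 22.3%, 26.4% and 34.2% of what was counted for Nfya in NF-YA cKO and 0 in every control library, so that transcripts of the intact gene remained in each NF-YA cKO library.

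TEAD proteins bind DNA at the M-CAT element but activate transcription poorly on their own. YAP and TAZ enter the nucleus and bind TEADs when the kinases of the Hippo pathway, MST and LATS, are inactive, and drive growth genes such as Ctgf and Cyr61. Vestigial-like proteins occupy the same TEAD surface and compete with YAP and TAZ or recruit other partners. In skeletal muscle, YAP with TEAD is known to favor expansion of activated SCs, while TEAD4 is a target of MyoD that accompanies myoblast differentiation, and VGLL2 is enriched in muscle.

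Library totals were 26936230 to 41118984 expected counts, and the members had between 201 and 13043 counts in a library, so that the spread between libraries and not the depth limits their comparison. Other cells and states moved with the genotype. All 10 markers of differentiated muscle were called lower in NF-YA cKO (summed level 32.5 to 77.4 TPM against 3205 to 4277 in NF-YA fl/fl), whereas 9 of 10 macrophage markers were called higher (162 to 308 against 3.99 to 18.5 TPM) and 4 of 6 Schwann cell markers were called higher (12.2 to 14.8 against 3.28 to 4.79 TPM). The SC marker Pax7 was present in both genotypes (88.7 ± 15.8 CPM in the controls and 171 ± 28.4 in NF-YA cKO, SD, n = 3, where CPM is the count per 1000000 counts of the TMM-scaled library). It was not called (log2 fold change 0.94, edgeR FDR = 0.00624). The 8 tested SC markers were split, with 4 higher and 4 lower in NF-YA cKO, and Cdh15 (-1.78) and Des (-2.09) were called lower. In NF-YA fl/fl replicate 3, fibroblast markers summed to 260 TPM, compared with 817 and 1221 in the other 2 NF-YA fl/fl libraries and 612 to 834 in NF-YA cKO. Xist was at 45.5 to 54.5 TPM in NF-YA cKO and 0.02 to 0.03 in NF-YA fl/fl, while the Y-linked Ddx3y was at 0.01 to 0.02 and 16.8 to 25.9 TPM, so that genotype and sex cannot be told apart. The study's methods name male mice, and the labels give no sex. In bulk RNA, fewer cells of a type and less RNA per cell cannot be told apart either, and the part of these shifts in the results that follow was not tested.

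Sequences are shown for the places where the deposited values or the studied factor bear on these genes: the start region of Vgll3, the member promoter with CCAAT boxes, and 3 coding exons that separate the annotated forms of Yap1, Tead1 and Tead4. RefSeq promoters (GRCm38.p6, 250 bases before to 50 after a start) were found for 7 of the 9 members, 10 windows in all, and none was read for Tead1 and Tead4. The letters CCAAT, searched on both strands, occurred in the window of 1 member, Vgll3, compared with 37.4% of all 32851 promoter windows. The letters CATTCC, the core of the M-CAT element, also searched on both strands, occurred in 7 of the 10 windows, in those of Tead3, Vgll3, Vgll4, Wwtr1 and Yap1, compared with 14.7% of all windows. The 2 Wwtr1 windows share the same copy. The 250 bases before the start of Vgll3 (chr16:65814939-65815188, plus strand) hold 2 CCAAT boxes, at 248 and 189 bases before the start, and 1 CATTCC at 63 bases before it, printed in capitals:
Vgll3 promoter: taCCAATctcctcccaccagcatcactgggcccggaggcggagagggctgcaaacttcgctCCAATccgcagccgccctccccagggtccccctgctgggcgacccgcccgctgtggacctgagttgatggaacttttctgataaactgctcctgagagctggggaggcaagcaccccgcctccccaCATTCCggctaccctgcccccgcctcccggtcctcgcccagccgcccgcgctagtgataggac
A letter match in a window is not a measured binding site. The exons are read 5′ to 3′ on the gene's strand, from annotated GENCODE M21 transcripts (GRCm38), and each is a whole number of codons inside the coding sequence. The Yap1 exon has 48 nt (chr9:7950492-7950539, minus strand), the Tead1 exon 63 nt (chr7:112841888-112841950, plus strand) and the Tead4 exon 129 nt (chr6:128247960-128248088, minus strand):
Yap1 exon: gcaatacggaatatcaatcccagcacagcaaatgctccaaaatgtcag
Tead1 exon: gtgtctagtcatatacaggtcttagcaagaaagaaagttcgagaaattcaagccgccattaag
Tead4 exon: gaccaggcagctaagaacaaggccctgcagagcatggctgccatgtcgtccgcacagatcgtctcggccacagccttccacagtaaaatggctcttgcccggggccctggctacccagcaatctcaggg

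Among the TEAD factors, Tead4 and Tead1 were lower in NF-YA cKO SCs and Tead2 was not called in either direction. Tead4, the TEAD tied to myogenic differentiation, lies on chromosome 6 from 128224288 to 128300823. It was at 7.59, 8.40 and 8.58 CPM in NF-YA cKO and at 58.6, 39.3 and 71.8 CPM in the controls. The genotypes did not overlap, and the lowest control library was well above the highest NF-YA cKO library. The means were 8.19 ± 0.527 and 56.6 ± 16.3 CPM (SD, n = 3), which is 6.90-fold lower in NF-YA cKO (log2 fold change -2.79, SE 0.23, edgeR quasi-likelihood FDR = 0.000390). Tead4 was the only member called lower in each of the 15 alternative fits, with log2 fold changes of -2.49 or lower.

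Tead1, an M-CAT binding factor expressed throughout striated muscle, lies on chromosome 7 from 112679318 to 112906807 and was the most abundant member by counts in the control. It was at 221, 180 and 195 CPM in NF-YA cKO and at 395, 374 and 443 CPM in the controls. Each control library was above each NF-YA cKO library. The level was 2.04-fold lower in NF-YA cKO (log2 fold change -1.03, SE 0.12, edgeR FDR = 0.00125). This sits at the edge of the call, which needs FDR < 0.01 together with a change beyond 1 or -1 on the log2 scale: Tead1 was called in 10 of the 15 alternatives, with changes of -1.14 to -0.94, and its call was lost without NF-YA cKO replicate 2 (-0.996) and without NF-YA fl/fl replicate 3 (-0.96).

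Tead3, a TEAD of low level in these cells, lies on chromosome 17 from 28331671 to 28350817. It was at 9.47, 8.11 and 8.41 CPM in NF-YA cKO and at 15.3, 14.5 and 17.6 CPM in the controls, again without overlap. Its log2 fold change was -0.87 (SE 0.14, edgeR FDR = 0.00391), which passed the FDR and not the fold threshold. Tead2, on chromosome 7 from 45215753 to 45233644, is the TEAD best known from embryonic and proliferating cells. It was at 57.0, 58.8 and 57.9 CPM in NF-YA cKO and at 40.9, 41.9 and 36.8 CPM in the controls. Here the NF-YA cKO libraries were the higher ones and lay within 1.58% (CV) of each other. The log2 fold change of 0.54 (SE 0.09, edgeR FDR = 0.00456) also passed the FDR and not the fold threshold, and on TPM 1 control library (29.51) was just above the lowest NF-YA cKO library (29.48).

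The co-activators did not share the pattern of Tead4 and Tead1. Yap1, on chromosome 9 from 7931999 to 8004596, was at 128, 123 and 119 CPM in NF-YA cKO and at 127, 132 and 114 CPM in the controls, with overlapping genotypes. The log2 fold change was -0.02, with a 95% interval of -0.23 to 0.20 (edgeR FDR = 0.908). Wwtr1, on chromosome 3 from 57455649 to 57575910, was at 190, 193 and 196 CPM in NF-YA cKO and at 224, 216 and 191 CPM in the controls. Control replicate 3 fell among the NF-YA cKO libraries, and the log2 fold change was -0.12, with a 95% interval of -0.34 to 0.10 (edgeR FDR = 0.341). For both genes a difference in mRNA as large as that of Tead1 lies outside the interval. Whether the proteins differed in amount, phosphorylation or location was not measured.

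**Figure D1:**
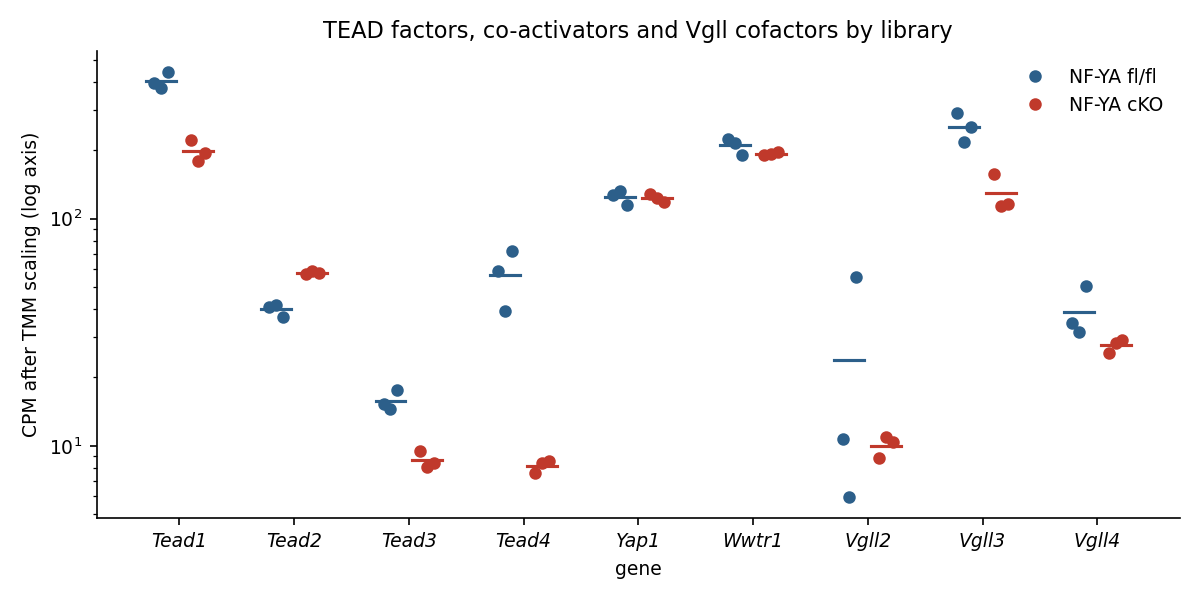
Level of each of the 9 genes in each library, in CPM after TMM scaling on a log axis; points are libraries (blue NF-YA fl/fl, red NF-YA cKO) and short lines the mean of 3. The Tead4 points of NF-YA cKO lie between 7.59 and 8.58 CPM and those of NF-YA fl/fl between 39.3 and 71.8, the points of Yap1 overlap, and Vgll2 is set apart by 1 control library at 55.1 CPM.

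Of the Vestigial-like cofactors, none was called. Vgll3, on chromosome 16 from 65815257 to 65866368, encodes a TEAD cofactor expressed in myoblasts and other mesenchymal cells. It was at 157, 114 and 117 CPM in NF-YA cKO and at 290, 217 and 252 CPM in the controls. The genotypes did not overlap, and the log2 fold change of -0.97 (SE 0.17, edgeR FDR = 0.00498) ended just short of the fold threshold. Under 7 of the 15 alternatives Vgll3 was called lower, among them upper quartile scaling (-1.02) and the fit without NF-YA cKO replicate 1 (-1.16). Among the 7 members with a promoter window, only Vgll3 had the letters CCAAT in it. Whether NF-Y binds there was not tested.

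Vgll4, on chromosome 6 from 114860628 to 114969994, encodes a cofactor that competes with YAP for TEAD. It was at 25.7, 28.5 and 29.2 CPM in NF-YA cKO and at 34.8, 31.6 and 50.5 CPM in the controls. All control libraries were above the NF-YA cKO libraries, with replicate 3 the highest. The log2 fold change of -0.49 (SE 0.19, edgeR FDR = 0.0762) did not pass. Vgll2, on chromosome 10 from 52022502 to 52028471, is the muscle-enriched member. It was at 8.80, 10.9 and 10.4 CPM in NF-YA cKO and at 10.7, 5.98 and 55.1 CPM in the controls. The other 2 control libraries lay in or below the range of NF-YA cKO. The log2 fold change of -1.26 (SE 0.76, edgeR FDR = 0.229) became 0.27 without NF-YA fl/fl replicate 3. That library had few fibroblast transcripts. It also had the highest Myod1 (1146 CPM against 361 and 295) and the lowest Ckm (12.7 against 67.4 and 37.8) of the controls. Markers of differentiated muscle were mixed in it: Myog was the highest of the controls (1450 CPM against 965 and 584) and Tnnc2 the lowest (141 against 304 and 204). The part of these traits in the Vgll2 value was not tested.

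Counted over the 9 members, 2 were called lower (Tead1 and Tead4), where 7.67% of all tested genes were called lower, and 0 were called higher, where 4.65% of all tested genes were. At an unadjusted edgeR p under 0.05, 1 member was higher (Tead2; 24.6% of all tested genes) and 5 were lower (Tead1, Tead3, Tead4, Vgll3 and Vgll4; 24.1%), and DESeq2 also called 0 higher. With the FDR alone, 4 members were lower (Tead1, Tead3, Tead4 and Vgll3; background 9.97%) and 1 was higher (Tead2; background 10.3%). The CPM of the genotypes did not overlap for 6 of the 9 members, which is near the 55.3% of all tested genes. The median log2 fold change of the members was -0.87, beside -0.02 over all tested genes.

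TPM accounts for transcript length, so that paralogs can be set beside each other. In NF-YA fl/fl, mean TPM was highest for Tead1 (66.5), followed by Wwtr1 (52.6), Vgll3 (48.6), Yap1 (36.3) and Vgll4 (25.7). Then came Tead2 (23.7), Tead4 (21.7), Vgll2 (16.1) and, last, Tead3 (7.52). The range of every neighbor in that order over its 3 libraries overlapped that of the next. Within each control library, however, Tead1 was above Wwtr1 and Vgll3 above Yap1, while the other neighbors changed order between control libraries. In NF-YA cKO, Wwtr1 (45.0) stood above Tead1 (34.2), Yap1 (33.4) and Tead2 (31.9), which overlapped one another in that order. Vgll3 (22.7) and Vgll4 (17.7) came next, followed by Vgll2 (7.18) and, at the bottom, Tead3 (3.91) and Tead4 (3.05). The ranges of Vgll3 and Vgll4 overlapped, as did those of Tead3 and Tead4. Within each NF-YA cKO library, however, Yap1 was above Tead2, Vgll3 above Vgll4 and Tead3 above Tead4. Tead2 was below Tead1 in every control library. In NF-YA cKO it was above Tead1 in replicate 2 (29.48 against 27.46 TPM) and below it in the other libraries.

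The summed TPM of the 4 TEADs was 81.0, 63.1 and 75.3 in NF-YA cKO and 122, 135 and 102 in NF-YA fl/fl. All controls were above all NF-YA cKO libraries (p = 0.1 in a two-sided exact permutation test, which 3 libraries against 3 cannot go below). Tead4 made up 3.72%, 4.50% and 4.37% of this sum in NF-YA cKO and 18.9%, 14.0% and 23.0% in NF-YA fl/fl, a difference of -14.4 percentage points (exact permutation p = 0.1). Tead2 made up 41.4%, 46.7% and 43.6% in NF-YA cKO and 19.5%, 21.9% and 17.6% in NF-YA fl/fl, a difference of 24.3 points (exact permutation p = 0.1). The share of Tead1 was 46.5% ± 2.89 against 55.4% ± 2.66 and that of Tead3 5.33% ± 0.235 against 6.33% ± 0.449 (SD, n = 3), both without overlap. As shares of expected counts, which are not adjusted for length, the differences were -7.81 points for Tead4, 13.5 for Tead2, -5.76 for Tead1 and 0.10, the other direction, for Tead3. A share can rise when the rest of its family is lower: the TPM of Tead2 itself was 31.9 ± 2.16 in NF-YA cKO and 23.7 ± 5.80 in NF-YA fl/fl.

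The summed TPM of Yap1 and Wwtr1 was 84.5, 70.8 and 79.9 in NF-YA cKO and 90.8, 110 and 65.6 in NF-YA fl/fl, with overlap, and Yap1 made up 42.6% ± 1.55 and 40.8% ± 0.940 of it (SD, n = 3, exact permutation p = 0.2). The summed TPM of the Vestigial-like genes was 53.4, 41.6 and 47.8 in NF-YA cKO and 82.9, 81.1 and 107 in NF-YA fl/fl, without overlap (exact permutation p = 0.1). The shares of Vgll2, Vgll3 and Vgll4 in it overlapped between the genotypes.

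**Figure D2:**
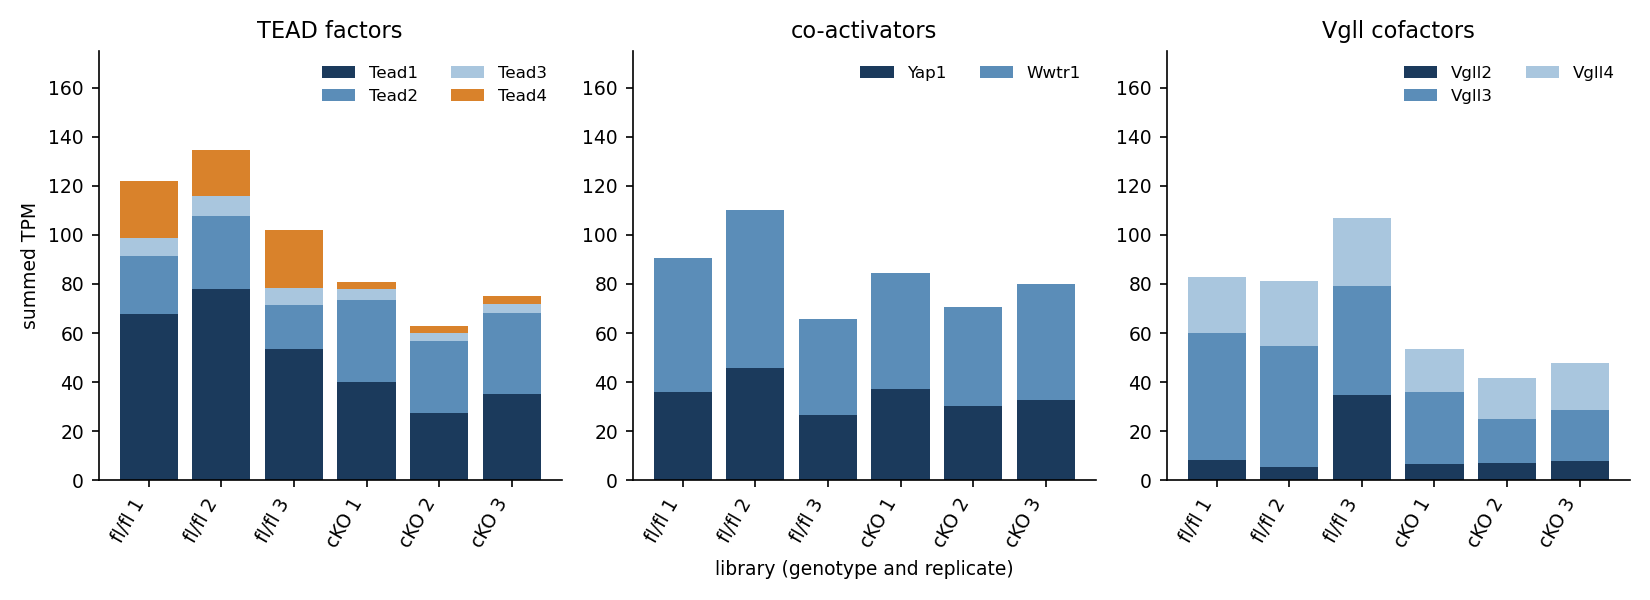
Stacked TPM of the TEAD factors, of Yap1 and Wwtr1, and of the Vestigial-like cofactors in each of the 6 libraries, on a common linear axis from 0. The summed TEAD level is 63.1 to 81.0 TPM in NF-YA cKO and 102 to 135 in NF-YA fl/fl, with a Tead4 segment of about 3 TPM in each NF-YA cKO library, and the co-activator sums overlap.

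Of the 42 annotated transcripts of the members, 40 reached 10 expected counts in at least 2 libraries. The CPM of 15 did not overlap between the genotypes, compared with 34.9% of all transcripts past this minimum, and the percent of the gene's TPM did not overlap for 11, compared with 21.5% of all such transcripts of genes with at least 2 of them. RSEM estimates the split of reads between transcripts that share exons, so that these percents are estimates.

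For Yap1, whose gene level was not called, the form with the 48-nt exon made up 45.1%, 44.6% and 43.6% of the gene's TPM in NF-YA cKO and 51.9%, 50.5% and 51.2% in NF-YA fl/fl. The libraries of each genotype lay within a narrow range, and the ranges did not overlap (exact permutation p = 0.1, the smallest possible). The form without this exon was at 49.0%, 51.0% and 50.5% in NF-YA cKO and 42.4%, 42.0% and 45.6% in NF-YA fl/fl. In CPM the form without the exon was higher in every NF-YA cKO library (62.2 ± 2.11 against 54.0 ± 2.04, SD, n = 3), whereas the form with it overlapped (55.8 ± 3.61 against 64.7 ± 5.03). The largest form was therefore the one without the exon in NF-YA cKO and the one with it in NF-YA fl/fl.

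Both forms of Tead4 followed the gene. The form with the 129-nt exon was at 4.83, 5.41 and 5.68 CPM in NF-YA cKO and at 34.9, 20.7 and 45.4 CPM in the controls, and the form without it at 2.76, 2.99 and 2.90 CPM against 23.8, 18.6 and 26.4 CPM. Neither overlapped between the genotypes. The form without the exon made up 37.4%, 36.7% and 34.8% in NF-YA cKO and 41.6%, 48.4% and 37.9% in NF-YA fl/fl, ranges that nearly touched. For Tead1, the form with the 63-nt exon was at 16.4%, 15.4% and 22.1% of the gene's TPM in NF-YA cKO and at 27.04%, 25.5% and 32.7% in NF-YA fl/fl, without overlap (exact permutation p = 0.1). The form without it was at 22.5%, 22.3% and 16.1% in NF-YA cKO and at 16.15%, 15.6% and 17.3% in NF-YA fl/fl, with overlap (exact permutation p = 0.3). Tead1 had 10 transcripts past the count minimum, and most of its predicted forms overlapped between the genotypes.

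When only the pair of forms was considered, a view chosen after the transcript values were seen, the form with the exon took 46.3% to 47.9% of the pair in NF-YA cKO and 52.9% to 55.0% in NF-YA fl/fl for Yap1. The same share was 40.9% to 57.9% against 62.1% to 65.4% for Tead1 and 62.5% to 65.2% against 51.6% to 62.1% for Tead4. Relative to the controls, this share was thus lower in NF-YA cKO for Yap1 and Tead1 and higher for Tead4, by a small margin between the nearest Tead4 libraries. For Tead1 the pair leaves out other large forms, among them a predicted one at 30.9%, 28.6% and 32.9% of the gene's TPM in NF-YA cKO. Which of these forms carry the exon was not examined, so that the pair does not give the exon's use over the gene.

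**Figure D3:**
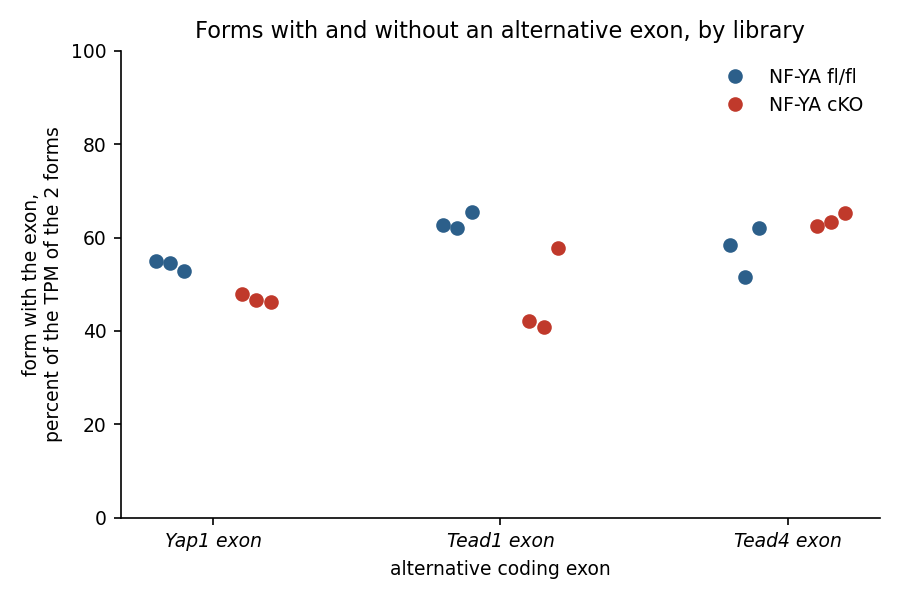
Percent of the TPM of a pair of forms that the form with the alternative exon takes, in each library (blue NF-YA fl/fl, red NF-YA cKO), for the exons of Yap1, Tead1 and Tead4. The points of the genotypes do not overlap for any of the 3 pairs, and for Tead4 the nearest points are 62.1% and 62.5%. For Tead1 other large forms lie outside the pair.

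Next, the lists of the Hippo pathway were examined, beginning with the kinases upstream of YAP and TAZ. Of 7 genes of the Hippo kinase core, 0 were called higher and 0 lower, also by DESeq2, and 0 passed the FDR alone, with a median log2 fold change of 0.19. The background was 4.65% called higher and 7.67% called lower, a rate at which a list of this size can hold no call. At an unadjusted edgeR p under 0.05, Stk3, Mob1a and Lats1 were higher and Lats2 and Mob1b lower. Stk3 and Stk4, the MST kinases, had log2 fold changes of 0.54 (SE 0.15, edgeR FDR = 0.0303) and 0.20 (SE 0.11, FDR = 0.176). Lats1 and Lats2, the kinases that phosphorylate YAP and TAZ, had values of 0.19 (SE 0.08, edgeR FDR = 0.0978) and -0.51 (SE 0.11, FDR = 0.0131). Lats2 was at 113, 105 and 110 CPM in NF-YA cKO and at 153, 138 and 178 CPM in the controls. These ranges did not overlap. The FDR of Lats2 passed 0.01 in 6 of the 15 alternatives, DESeq2 among them (0.000511), always short of the fold threshold.

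Of 17 upstream regulators and cytoplasmic tethers, 2 were called lower and 0 higher, with a median log2 fold change of -0.31, beside 7.67% called lower and a median of -0.02 over all tested genes. Dchs1, a large cadherin that acts as the ligand of Fat4, was at 25.6, 29.3 and 32.8 CPM in NF-YA cKO and at 64.9, 80.4 and 118 CPM in the controls (log2 fold change -1.59, SE 0.23, edgeR FDR = 0.00269). Amot, angiomotin, which holds YAP outside the nucleus, was at 19.6, 22.6 and 25.0 CPM in NF-YA cKO and at 62.0, 63.2 and 51.3 CPM in the controls (log2 fold change -1.39, SE 0.13, edgeR FDR = 0.000700). Neither overlapped between the genotypes. Amot is on the X chromosome. Taok1, a kinase that activates MST, and Amotl2, another angiomotin, passed the FDR and not the fold threshold (-0.54 and -0.65). At an unadjusted edgeR p under 0.05, 2 genes of the list were higher (Frmd6 and Map4k4) and 7 lower (these 4 with Taok2, Taok3 and Amotl1), and DESeq2 called 0 higher as well. The call of Dchs1 was lost when any one NF-YA cKO library was left out (FDR up to 0.0166), and that of Amot was kept in all 15 alternatives. Without 1 NF-YA cKO library, 523 to 664 of all tested genes were called lower, compared with 1331 with all libraries.

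Of 22 targets of YAP and TAZ, 1 was called lower and 0 higher, with a median log2 fold change of -0.13. The share called lower over all tested genes was 7.67%, and their median log2 fold change was -0.02. At an unadjusted edgeR p under 0.05, 2 targets were higher (F3 and Nt5e) and 6 lower (Tgfb2, Rbms3, Amotl2, Lats2, Gadd45a and Arhgef17), of which Rbms3 (-0.80) and Amotl2 (-0.65) passed the FDR and not the fold threshold. The lists share genes: Lats2 is also in the kinase core and Amotl2 among the tethers, so that their values are counted again here. DESeq2 called 1 target, F3, higher. The best known targets were not called: the log2 fold changes were -0.12 for Ctgf (SE 0.43, edgeR FDR = 0.841), -0.06 for Cyr61 (SE 0.15, FDR = 0.774) and 0.55 for Ankrd1 (SE 0.30, FDR = 0.191). Ctgf, a matricellular protein, was at 503, 424 and 468 CPM in NF-YA cKO and at 819, 487 and 212 CPM in the controls, where the control libraries lay on both sides of NF-YA cKO. Ankrd1, a muscle ankyrin repeat protein, was at 977, 949 and 854 CPM in NF-YA cKO and at 500, 420 and 973 CPM in the controls. Without NF-YA fl/fl replicate 3 its log2 fold change was 1.005 and it was called higher. The called target was Tgfb2, a ligand of the TGF-beta family, at 9.09, 6.97 and 9.05 CPM in NF-YA cKO and at 54.5, 44.8 and 125 CPM in the controls (log2 fold change -3.16, SE 0.41, edgeR FDR = 0.00187). Its ranges did not overlap, and its call was lost when any one NF-YA cKO library was left out (FDR up to 0.0139). Those fits called 523 to 664 of all tested genes lower, compared with 1331 with all libraries.

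Muscle genes with M-CAT elements had the most calls of the 4 pathway lists, 6 lower and 0 higher of 7, with a median log2 fold change of -5.70. Over all tested genes, 7.67% were called lower and 4.65% higher, with a median of -0.02. The products of the 6 called genes belong to contractile filaments or, for Ckm, to energy supply, and they moved with the 10 markers of differentiated muscle, whose part in this result was not tested. Acta1, skeletal alpha-actin, was at 14.5, 20.4 and 35.5 CPM in NF-YA cKO and at 3007, 2103 and 2282 CPM in the controls (log2 fold change -6.71, SE 0.41, edgeR FDR = 0.000139). Myh7, slow myosin heavy chain, was at 0.223, 0.652 and 1.06 CPM in NF-YA cKO and at 323, 136 and 290 CPM in the controls (-8.54, SE 0.58). Tnnt2, cardiac troponin T, which is also made in immature skeletal muscle, was at 34.7, 49.3 and 49.0 CPM against 411, 237 and 231 CPM (-2.72, SE 0.27). Ckm, muscle creatine kinase, was at 0.351, 0.434 and 0.870 CPM against 67.4, 37.8 and 12.7 CPM (-6.11, SE 0.73). None of these 4 overlapped between the genotypes. Myh6, a near-identical neighbor of Myh7 whose reads can be split with it, had 1, 1 and 0 counts in NF-YA cKO and 30, 21 and 45 in NF-YA fl/fl. Acta2, smooth muscle alpha-actin, was called as well but with the smallest change (log2 fold change -1.20, SE 0.15). Nppb, a natriuretic peptide with at most 21 counts in a library, had a log2 fold change of 2.29 and an edgeR FDR of 0.0224, and is the one gene of this list that was higher at an unadjusted p under 0.05; DESeq2 called 0 higher.

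**Figure D4:**
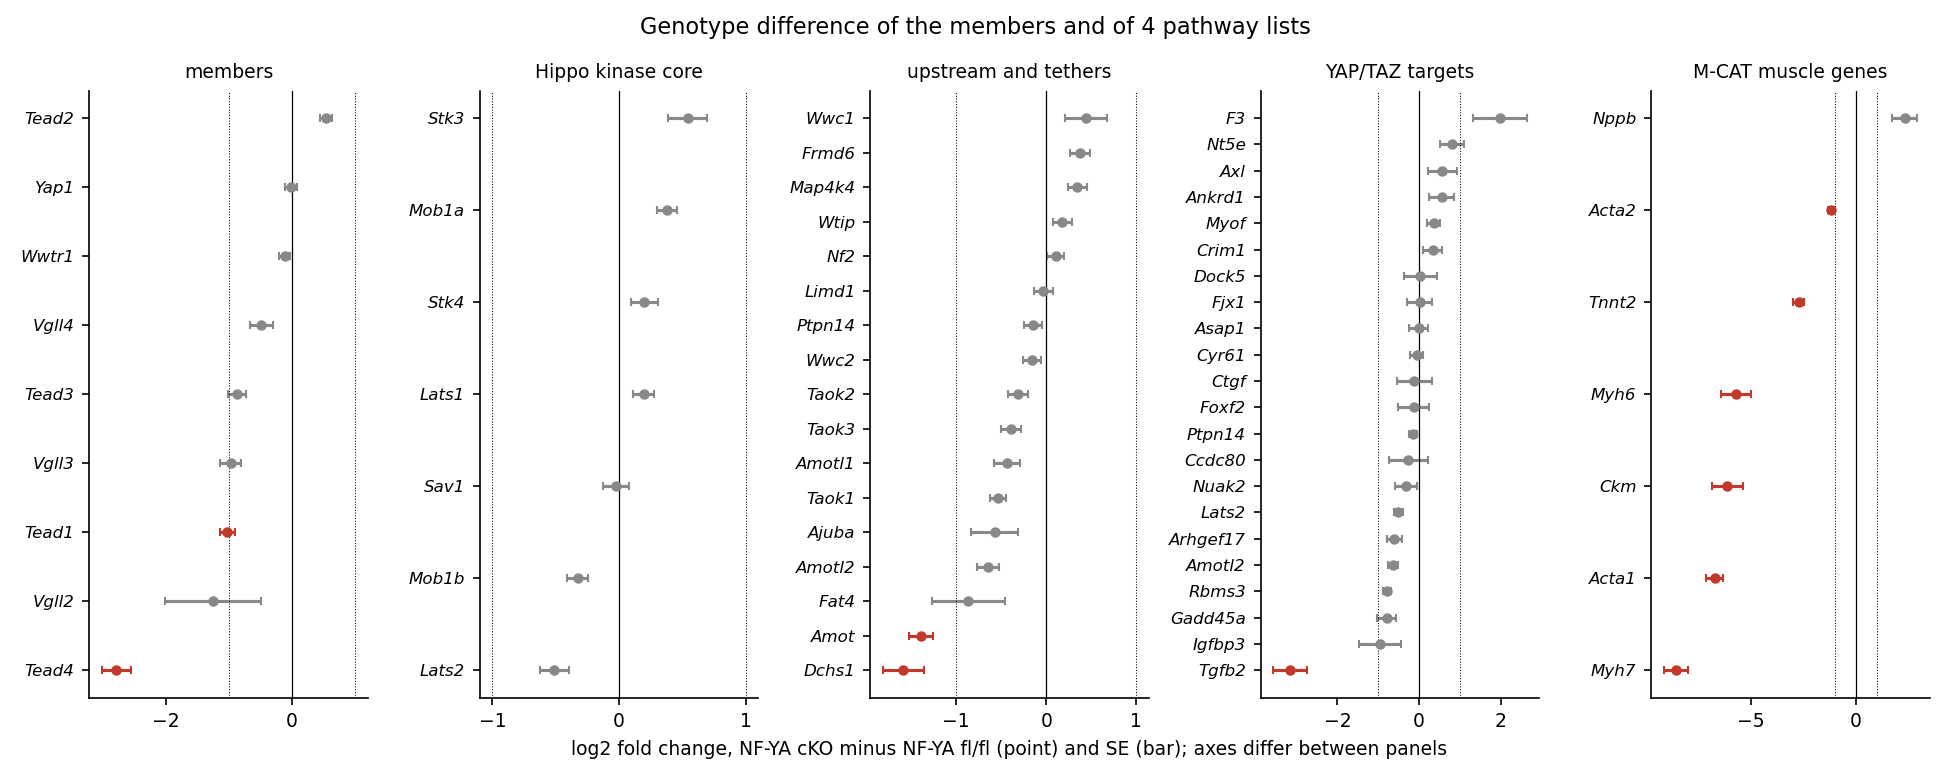
Log2 fold change (NF-YA cKO minus NF-YA fl/fl, 3 libraries each) with its SE for the 9 members and for 4 pathway lists; red points are called genes, dotted lines mark the fold threshold, and the axes differ between panels. The Hippo kinase panel has no red point, Tgfb2 (-3.16) is the one in the panel of targets, and 6 of the 7 M-CAT muscle genes are red.

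The genes whose level followed a called member most closely over the 6 libraries were looked up by the Euclidean distance of centered log2 CPM, among tested genes that averaged 10 CPM or more. For Tead4 these were Shisa2, an endoplasmic reticulum protein that restrains Wnt and FGF receptors (distance 0.273), Iffo1, an intermediate filament family protein (0.304), and Fam171a2 (0.395). Shisa2 was at 14.6, 19.0 and 20.4 CPM in NF-YA cKO and at 119, 85.9 and 141 CPM in the controls. For Tead1 they were Fhl1, a LIM protein of striated muscle (distance 0.0963), Dusp1, a phosphatase of MAP kinases (0.0970), and Arid5b, a DNA-binding cofactor (0.151). Fhl1 was at 59.3, 45.3 and 48.7 CPM in NF-YA cKO and at 98.0, 97.1 and 111 CPM in the controls. The likeness rests on 6 libraries that fall into 2 genotypes, and many genes share such a split.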

How the data were processed

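Total RNA of cultured SCs was sequenced as stranded libraries, 3 per genotype, with groups taken from the sample labels. The authors aligned the reads with Bowtie2 and quantified them with RSEM on mm10, per the labels and the study's methods. The deposited expected counts carry no normalization and were rounded here. The deposited TPM is scaled to length and to 1000000 per library, so that it keeps no depth. The deposited percent is a transcript's part of its gene's TPM. RSEM splits reads shared by paralogs and transcripts. The columns of effective length and FPKM were not used.

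The 17348 genes above 10 counts in 2 or more libraries were tested with edgeR 4.0.16 (TMM, quasi-likelihood, genotype only, Benjamini-Hochberg FDR) in R 4.3.3. A call needed FDR < 0.01 with a change beyond 1 or -1 on the log2 scale. CPM uses TMM library sizes, and 3 counts correspond to 0.0705 to 0.115 CPM. The standard error is the log2 fold change over the square root of F, and intervals use the degrees of freedom of the test. Shares and transcripts were compared by two-sided exact permutation tests, which cannot go below p = 0.1. No 2 libraries held identical counts. The edgeR p-values set the genotype difference against the spread between libraries. The fit was tested on simulated counts. Alternatives used DESeq2 1.42.0, limma 3.58.1, other scalings, filters and thresholds, a replicate block, and each library left out.

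The members and gene lists were chosen with earlier results of these data known. Named were all members, Stk3, Stk4, Lats1, Lats2, Ctgf, Cyr61 and Ankrd1, the called genes of each list with the largest change (at most 5 per direction), and the 3 genes nearest in pattern to each called member. Acta2, Nppb, Taok1, Amotl2, F3, Nt5e, Frmd6, Map4k4 and Taok2 fall outside this rule and were named after their values were seen. The same holds for Taok3, Amotl1, Rbms3, Gadd45a, Arhgef17, Mob1a, Mob1b and the markers Myod1, Myog and Tnnc2. Of the other marker lists, 2 of 8 tested SC markers (Cdh15 and Des) were called lower, 1 of 8 fibroblast and 1 of 5 tested endothelial markers higher, and 0 of 5 tested pericyte markers either way.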

Additional observations from a re-analysis of the deposited data

How the results depend on the processing

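Tead4 kept its call in all 15 alternative fits, and 0 members were called higher in each. Without the fold threshold, 1 member was called higher and 4 lower, with 4 upstream regulators and 3 targets lower, Amotl2 being counted in both lists. Without a filter on low counts 1 member, Tead4, was called lower. DESeq2 called 1 target (F3) higher, and an FDR under 0.05 called 1 M-CAT gene (Nppb) higher. On expected counts in place of TPM, the difference in the Tead4 share was -7.81 percentage points and that of Tead3 turned to 0.10. The cause was not tested.

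Leaving out 1 library gave 1 to 3 members, 1 to 3 upstream regulators and 0 to 2 targets called lower, and 0 to 1 targets called higher. Of the M-CAT genes, 3 to 6 were called lower (3 without NF-YA cKO replicate 2). Over all tested genes, 523 to 664 were called lower without 1 NF-YA cKO library and 819 to 1684 without 1 control, compared with 1331. Called higher were 177 to 283 and 298 to 890, compared with 806. There were 16 to 25 transcripts without overlap, and the share over all transcripts is not given here. The Tead4 share difference was -16.7 to -12.2 points. Log2 fold changes that were not called turned sign for Yap1 (0.012 with no filter, -0.079 to 0.021 with 1 library left out), Vgll2 (-1.73 to 0.27, above 0 without NF-YA fl/fl replicate 3), Ctgf (-0.50 to 0.40, above 0 without NF-YA fl/fl replicate 1) and Cyr61 (-0.20 to 0.041, above 0 without NF-YA fl/fl replicate 2).

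The labels do not say whether libraries with the same replicate number are paired. The deviations of same-numbered libraries correlated at 0.17, -0.07 and 0.05 over genes, and those of differently numbered libraries at -0.14 to 0.10. With 3 libraries per genotype these values cannot decide whether the libraries are paired. With the replicate block 2 members were called lower, as without it, with -2.75 for Tead4 and -1.03 for Tead1. Over all genes the block called 625 higher and 947 lower, compared with 806 and 1331, and Ctgf turned to 0.070. limma on log2(TPM + 1) called 231 higher and 704 lower, and left Tead1 uncalled at -0.94 (FDR 0.0150).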
